A study of Mus musculus with 6 samples.

Results

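The genes described here are the type I interferon response genes, a list of 38 mouse genes that holds interferon beta (Ifnb1) and genes that cells switch on when they sense it. They were found by symbol in the deposited table of 27634 genes, and 37 of the 38 had a row. The symbol Dhx58 had none, while a row under an older name of that gene, D11lgp2, is given separately and is not counted. RNA was sequenced from cells labelled as cancer-associated dendritic cells, taken from C57BL/6 mice bearing ID8-Defb29/Vegf-a tumours, an ovarian cancer line of C57BL/6 origin that carries beta-defensin 29 and VEGF-A. Tumour days 32 to 38 are given for all samples. All mice received nanocomplexes of rhodamine-conjugated polyethylenimine with 100 µg of siRNA, so that the controls also carried the polymer and an RNA. Control mice had non-targeting (NT) siRNA and the others had siRNA against Satb1, whose product is a nuclear protein that organises chromatin. The labels name 2 experiments after how far Satb1 was reduced. The strong-knockdown experiment has 2 libraries per siRNA, and the weak-knockdown experiment has 1 library per siRNA. The sources used here do not give the age of the mice, how the cells were isolated or whether several mice were pooled.

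Type I interferons are secreted when a cell detects foreign or misplaced nucleic acid. They bind a receptor built of IFNAR1 and IFNAR2, and the receptor's kinases activate STAT2, which enters the complex ISGF3 together with IRF9. ISGF3 binds the interferon-stimulated response element (ISRE) in the promoters of many interferon-induced genes, among them Irf7. The product of Irf7 in turn drives more interferon gene transcription. In dendritic cells this loop is known for promoting maturation and the cross-presentation of tumour antigen to T cells.

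Of the 37 members, 29 had promoter windows in the RefSeq set of build GRCm38.p6, which cover 250 bases before to 50 bases after a gene's start. Mx1, Mx2, Oas2, Usp18, Zbp1, Parp14, Parp9 and Rtp4 had none. The core of the ISRE was searched as GAAANNGAAA on both strands. It was found in 12 of the 29 member genes, or 41.4%, against 3.99% of the 27025 genes in the set and 3.78% of the 12090 of them that were tested in the strong-knockdown experiment. Counted by window, it was in 33.3% of the 36 member windows and 3.44% of all 32851 windows of the same length. The 250 bases before the start of the 4 holders with the largest change after Satb1 siRNA are shown here because they display how the core is placed and repeated. They read 5′ to 3′ along the gene's strand, with the matched bases in capitals. Isg15 (chr4:156200819-156201068, minus strand) has 3 overlapping matches centred at -73, -67 and -61 from the start. Bst2 (chr8:71537473-71537722, minus strand) has 2 overlapping matches at -125 and -119. In Oas1a (chr5:120907526-120907775, minus strand) 2 overlapping matches lie close to the start, at -15 and -9. Rsad2 (chr12:26456453-26456702, minus strand) has 1 match at -115, on the opposite strand, so that the capitals show its complement.
Isg15: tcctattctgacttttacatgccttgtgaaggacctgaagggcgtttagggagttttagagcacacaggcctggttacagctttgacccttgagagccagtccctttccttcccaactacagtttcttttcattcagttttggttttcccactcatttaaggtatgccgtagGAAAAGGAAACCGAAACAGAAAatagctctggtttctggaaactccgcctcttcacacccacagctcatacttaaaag
Bst2: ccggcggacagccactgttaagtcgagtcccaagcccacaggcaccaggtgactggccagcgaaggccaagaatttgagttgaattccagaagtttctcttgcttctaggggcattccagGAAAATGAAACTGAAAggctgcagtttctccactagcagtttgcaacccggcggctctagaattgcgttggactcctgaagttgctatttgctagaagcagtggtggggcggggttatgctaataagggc
Oas1a: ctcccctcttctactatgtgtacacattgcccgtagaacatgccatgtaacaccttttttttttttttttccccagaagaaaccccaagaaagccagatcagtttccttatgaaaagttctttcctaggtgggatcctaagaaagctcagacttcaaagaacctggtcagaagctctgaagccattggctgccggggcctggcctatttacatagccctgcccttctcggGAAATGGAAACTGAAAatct
Rsad2: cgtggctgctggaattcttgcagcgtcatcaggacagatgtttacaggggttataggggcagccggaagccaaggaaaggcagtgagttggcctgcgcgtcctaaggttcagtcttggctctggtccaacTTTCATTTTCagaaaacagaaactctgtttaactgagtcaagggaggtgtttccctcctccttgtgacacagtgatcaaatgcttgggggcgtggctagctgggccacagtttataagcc
The other 8 holders are shown as 20 bases around 1 match each, read on the strand of the match with the core in capitals, to let the core and its flanks be compared. The sites are chr19:34640799-34640818 for Ifit1, chr19:34583402-34583421 for Ifit3, chr5:120777720-120777739 for Oas3, chr10:128270271-128270290 for Stat2, chr4:40239809-40239828 for Ddx58, chr2:62646209-62646228 for Ifih1, chr17:78882540-78882559 for Eif2ak2 and chr7:141010728-141010747 for Ifitm3.
Ifit1: agtgaGAAACTGAAActgag
Ifit3: aagtaGAAACTGAAAcagac
Oas3: gaggaGAAAACGAAAgtgaa
Stat2: gaaagGAAACTGAAAccagg
Ddx58: catagGAAATCGAAActgcc
Ifih1: gaatcGAAACAGAAAccgat
Eif2ak2: gccggGAAAACGAAAcagaa
Ifitm3: ttcagGAAAAGGAAActtct
The shorter core AANNGAAA, which is contained in the ISRE core and is bound by the wider IRF family, was in 61.1% of member windows and 23.9% of all windows. The gamma-activated sequence motif TTCNNNGAA was in 22.2% and 8.3%, and the NF-kB motif GGGANNTTCC in 11.1% and 1.47%. Both were searched on both strands as well, and both can share bases with an ISRE core that adjoins them. The NF-kB motif was found in Ifnb1, Ifit2, Isg20 and Ifitm3, and Ifnb1 held it at -111. A match is a description of letters in these windows. The absence of a match says nothing about binding outside them.

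**Figure D1:**
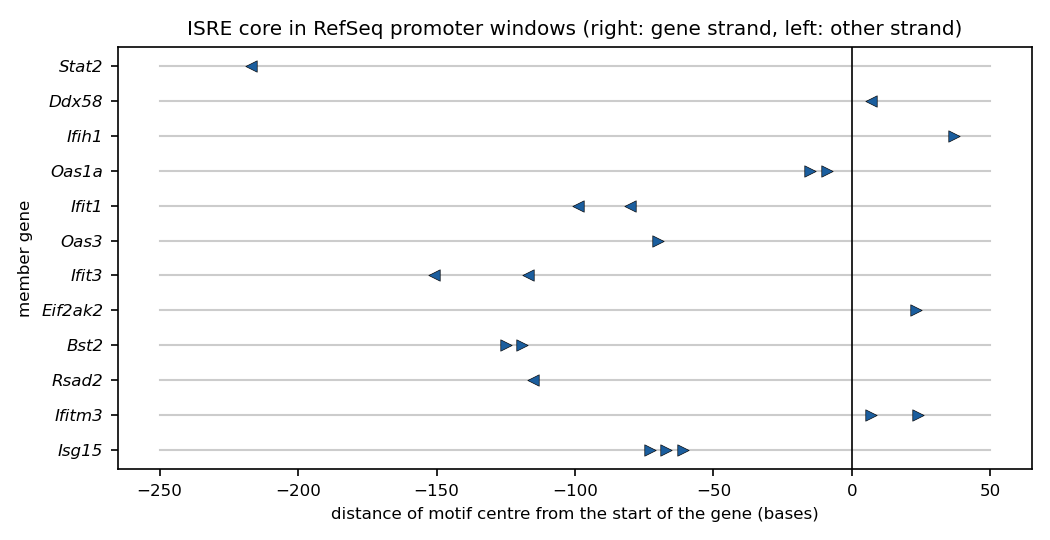
Position of every ISRE core match in the promoter windows of the 12 member genes that hold one. The horizontal axis is the distance of the match centre from the gene's start in bases, the grey line is the window, and the triangles point right for the gene's strand and left for the other. Matches lie from -217 (Stat2) to 37 (Ifih1), with 3 in Isg15.

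Satb1 itself gave 16.6 and 15.3 CPM (counts relative to library size, scaled by the TMM method over all 6 libraries) in the NT libraries of the strong-knockdown experiment, against 3.12 and 3.58 with Satb1 siRNA (log2 fold change -2.25). In the weak-knockdown experiment it stood at 8.89 with NT and 7.42 with Satb1 siRNA, from 170 and 165 counts. On totals of 27029554 and 24553454, these counts were not lower with Satb1 siRNA by library size alone. Total counts ran from 24553454 to 71272720 per library, so that a count of 0, which allows up to 3 counts, allows 0.0384 to 0.157 CPM on this scale. The repeats of a group in the strong-knockdown experiment were nearly as alike as counting noise allows. Their mean chi-square per gene was 1.202 for NT and 1.37 for Satb1 siRNA over all genes, where counting noise alone gives about 1, and 0.908 and 0.592 over the members. An NT and a Satb1 siRNA library differed by 67.4 per gene over all genes and by 610 over the members. At the same fold difference this value grows with a gene's counts, so it does not compare the members with all genes. Because the repeats were so alike, each group was counted as 1 sample of its condition. Standard errors (SE) and p-values of the strong-knockdown experiment measure the spread between these sequenced libraries, not between mice. Of the defining markers of the labelled cell type, Itgax (CD11c) stood at 20.3 and 20.2 CPM with NT and 5.47 and 4.93 with Satb1 siRNA, and Zbtb46 at 4.78, 4.93, 5.97 and 5.26. None of the 10 classical dendritic cell markers was at 0 in any library. The same held for the listed markers of macrophages, monocytes, B cells, T and NK cells and tumour and mesothelial cells, so it does not single out a cell type. Some of the 10 were scarce, such as Cd209a at 0.242 and 0.231 CPM with NT. In the strong-knockdown experiment 6 of the 10 were called higher and 4 lower, against 32.8% and 33.2% of all genes.

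All 37 members were lower with Satb1 siRNA in the strong-knockdown experiment. Both NT libraries lay above both Satb1 siRNA libraries for every member, against 41.1% of the genes tested, and all 37 passed the test (edgeR quasi-likelihood test with Benjamini-Hochberg adjustment over 20242 genes, threshold 0.05). Over all genes tested, the same test called 33.2% lower and 32.8% higher, so that passing it is common here. The median log2 fold change of the members was -0.55, against 0.01 over all genes, and 17 of 37 members were at least 1.5-fold lower, against 9.80% of all genes. At least 2-fold lower were 4 members, namely Ifnb1, Isg15, Irf7 and Bst2, against 4.01% of all genes. Together the 37 members made up 0.771% and 0.772% of counts in the NT libraries and 0.577% in each Satb1 siRNA library. In such bulk samples, fewer cells of a type and less RNA per cell cannot be told apart.

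In a further fit the repeats were summed to 1 sample per condition, with the experiment as a term. It estimates 1 siRNA effect over both experiments, not that of the strong-knockdown experiment alone. Its spread comes from the difference between the experiments. This shared effect was not called by edgeR for any member. Of the 37, all were below 0 and 14 had an unadjusted p under 0.05, against 5.73% of all genes that were below 0 with such a p, and the smallest adjusted p was 0.310. That fit has 1 residual degree of freedom and called 0.0315% of all genes lower. DESeq2, added after the data were seen, called 7 members lower in the same layout, against 1.28% of all genes. These were Rsad2 (adjusted p = 0.0015), Irf7 (0.0267), Isg15 (0.0272), Ifnb1 (0.0342), Oasl1 (0.0476), Bst2 and Cmpk2 (0.0485 each).

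**Figure D2:**
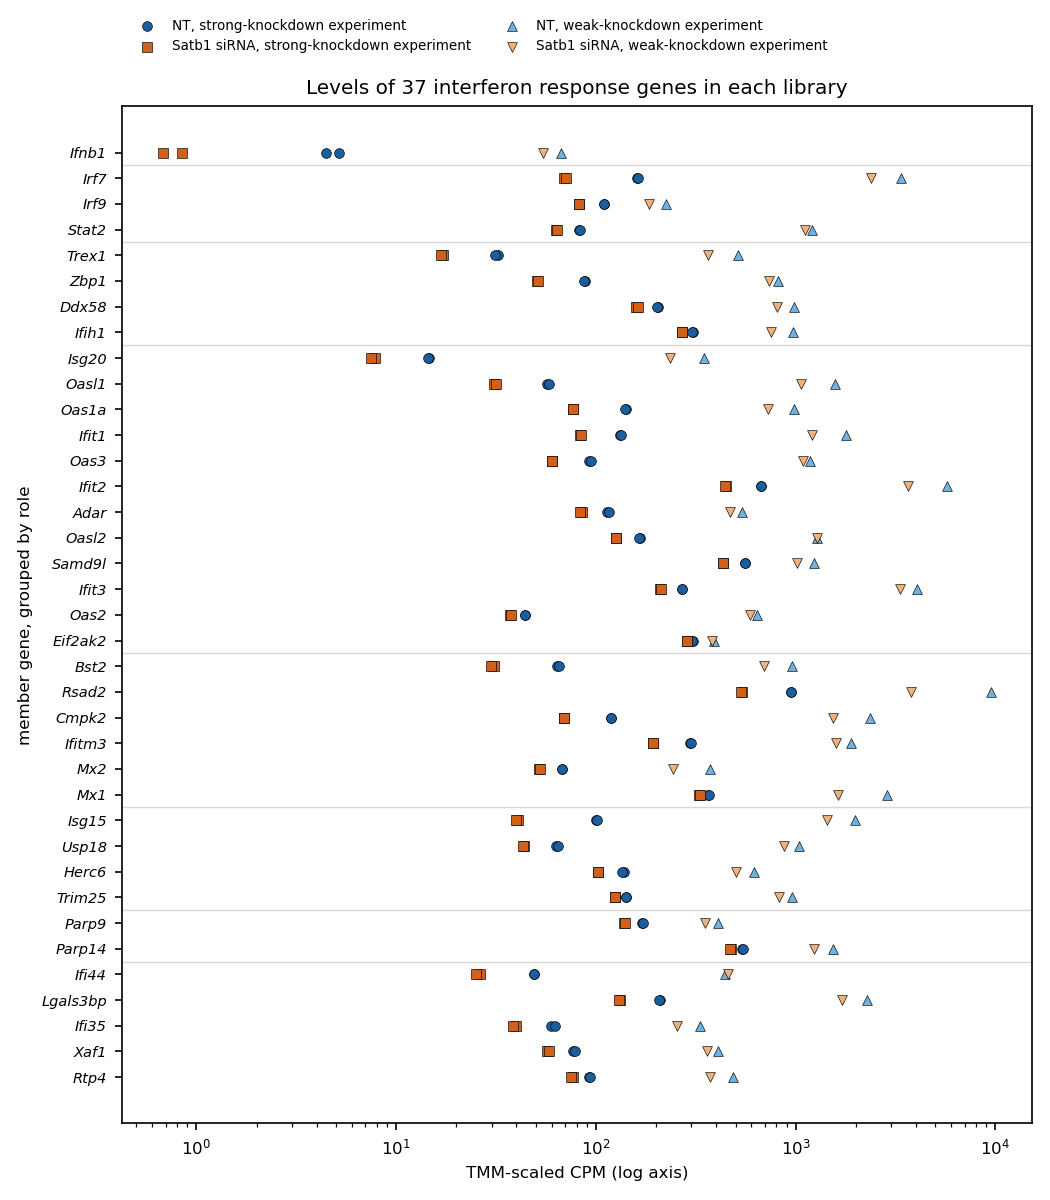
Level of each of the 37 members in each of the 6 libraries, in TMM-scaled CPM on a log axis, grouped by role. Circles and squares are the NT and Satb1 siRNA libraries of the strong-knockdown experiment, and triangles those of the weak-knockdown experiment. The squares lie to the left of the circles for all 37 members, and the weak-knockdown libraries lie to the right of both with this scaling. With library size alone Eif2ak2 is lower in the weak-knockdown NT library.

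The ligand showed the largest difference of the list. Ifnb1 gave 383 and 348 counts in the NT libraries and 50 and 38 with Satb1 siRNA, or 5.16 and 4.46 against 0.847 and 0.679 CPM. It was the scarcest member, and its repeats differed the most, by up to 22.01% of their mean. That spread was small beside the gap between the siRNAs, which came to a log2 fold change of -2.64 (SE 0.136, edgeR, adjusted p = 7.30e-28), or 6.24-fold. In the weak-knockdown experiment Ifnb1 stood at 66.9 CPM with NT and 54.0 with Satb1 siRNA, from 1280 and 1201 counts. With scaling by library size alone it was not lower there.

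Irf7, the factor that amplifies interferon transcription, fell the most among the 3 transcription factors. It stood at 161 and 162 CPM with NT and 68.9 and 70.5 with Satb1 siRNA (log2 fold change -1.21, SE 0.0215, edgeR, adjusted p = 2.18e-57). The weak-knockdown libraries held 3385 CPM with NT and 2387 with Satb1 siRNA. The ISGF3 subunits changed less. Irf9, its DNA-binding subunit, went from 109.7 CPM in each NT library to 82.1 and 82.4 (log2 fold change -0.41), and stood at 225 and 184 in the weak-knockdown experiment. Stat2 went from 82.5 and 83.1 to 62.9 and 64.2 CPM (log2 fold change -0.38), with 1206 and 1110.0 in the weak-knockdown experiment. With scaling by library size alone neither Irf9 nor Stat2 was lower there. Their counts were 4302 and 4081 for Irf9 and 23063 and 24670 for Stat2, on totals of 27029554 and 24553454. Irf7 was thus more than 2-fold lower while Irf9 and Stat2 were less than 1.5-fold lower, and no library of one siRNA reached the range of the other in the strong-knockdown experiment.

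All 4 nucleic acid sensor and DNA-handling genes in the table fell. Trex1, which degrades cytosolic DNA, stood at 32.2 and 31.1 CPM with NT against 17.2 and 16.7 (log2 fold change -0.89), and at 516 and 364 in the weak-knockdown experiment. Zbp1, a sensor of Z-form nucleic acid, stood at 88.3 and 87.5 CPM against 50.5 and 51.3 (log2 fold change -0.78), and at 814 and 738. With scaling by library size alone Zbp1 was not lower in the weak-knockdown experiment, from 15563 and 16394 counts. The sensors of cytosolic double-stranded RNA moved less, with -0.33 for Ddx58 (RIG-I) and -0.18 for Ifih1 (MDA5) on the log2 scale. The row D11lgp2, which the file describes as an mRNA of that name, stood at 93.3 and 94.7 CPM against 56.5 and 56.6 (log2 fold change -0.73). It thus lay between Zbp1 and Ddx58.

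The 12 members that act on translation and RNA decay spanned log2 fold changes from -0.92 to -0.09, with a median of -0.52. At least 1.5-fold lower were 5 of them, against 9.80% of all genes. Isg20, an RNA exonuclease, stood at 14.6 and 14.5 CPM with NT and 7.81 and 7.47 with Satb1 siRNA (-0.92), and at 349 and 234 in the weak-knockdown experiment. Oasl1, which restrains translation of Irf7, stood at 57.0 and 57.9 CPM against 30.9 and 31.5 (-0.87), and at 1564 and 1060.3. Oas1a, of the family that activates RNase L, stood at 141 and 139 CPM against 77.1 and 77.0 (-0.86), and at 978 and 725. The families did not move evenly. Among the oligoadenylate synthetases Oas3 changed by -0.62 and Oas2 by -0.23, and among the synthetase-like genes Oasl2 changed by -0.39. The IFIT proteins, which bind foreign RNA and block its translation, gave -0.66 (Ifit1), -0.58 (Ifit2) and -0.35 (Ifit3). The RNA editor Adar changed by -0.45 and the translation repressor Samd9l by -0.36. Eif2ak2 (PKR), the kinase that halts translation, had the smallest difference of all members, with 308 and 303 CPM against 285 and 287 (-0.09, SE 0.0107, edgeR, adjusted p = 1.93e-11). Oas, Oasl, Ifit and Mx genes have close relatives, so their counts depend on how the authors' program divided shared reads.

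Among the 6 members grouped under virus entry, replication and release, 4 were at least 1.5-fold lower, against 9.80% of all genes. Their median was -0.69. Bst2 (tetherin), which holds budding virus at the membrane, stood at 63.6 and 65.3 CPM with NT and 30.8 and 29.9 with Satb1 siRNA (-1.08), and at 954 and 696 in the weak-knockdown experiment. Rsad2 (viperin), which makes a chain-terminating nucleotide, was the most counted member of the strong-knockdown experiment at 944 and 943 CPM with NT, and stood at 538 and 532 with Satb1 siRNA (-0.81). It reached 9457 CPM in the weak-knockdown NT library and 3772 with Satb1 siRNA. Its neighbour in gene order, Cmpk2, a mitochondrial nucleotide kinase, stood at 118 CPM in each NT library against 69.3 and 69.2 (-0.77), and at 2362 and 1529. Ifitm3, which blocks fusion of virus with endosomes, changed by -0.62, and the dynamin-like GTPases by -0.37 (Mx2) and -0.14 (Mx1).

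Isg15, the ubiquitin-like protein that is joined to others during the response, fell the most after Ifnb1. It stood at 100.5 and 101 CPM with NT and 40.8 and 39.9 with Satb1 siRNA (-1.31, SE 0.0254, edgeR, adjusted p = 4.66e-55), and at 1989 and 1438 in the weak-knockdown experiment. Its promoter, shown above, carries the most ISRE core matches of the 29 genes with a window. Usp18, which removes Isg15 and blocks the receptor, changed by -0.55, and the ligases Herc6 and Trim25 by -0.41 and -0.18. The ADP-ribosyltransferases changed little, with -0.30 for Parp9 and -0.18 for Parp14.

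Of the 5 remaining members, Ifi44 stood at 48.8 and 48.7 CPM with NT and 26.4 and 25.2 with Satb1 siRNA (-0.91), and at 441 and 458 in the weak-knockdown experiment. It and Oasl2 were the members that were not lower with Satb1 siRNA there under TMM scaling. Lgals3bp, a secreted glycoprotein, changed by -0.66, and Ifi35 by -0.64, Xaf1 by -0.43 and Rtp4 by -0.28. Per length, on the authors' FPKM scale, Ifitm3 was the most abundant member and Ifnb1 the least abundant in all 6 libraries, at 514 and 7.02 in the first NT library. The median FPKM of the members was 57.1 and 56.9 with NT against 44.6 and 45.5 with Satb1 siRNA in the strong-knockdown experiment.

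The median log2 fold change of members with the ISRE core in the window was -0.62 over 12 genes, against -0.64 over the 17 genes with a window but no match. Eif2ak2 and Ifih1, with the smallest and the third smallest difference, both hold the core. Neighbouring genes formed 4 runs of 2 members each in the gene order, namely Rsad2 and Cmpk2, Ifit2 and Ifit3, Oasl2 and Oasl1, and Oas2 and Oas3. Members of a run share a locus and are not independent of each other.

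In the weak-knockdown experiment, 35 of 37 members had a log2 ratio of Satb1 siRNA over NT below 0, against 55.2% of all 13700 genes compared, but this direction depends on the scaling. With scaling by library size alone the members' median went from -0.31 to 0.05 and 17 were below 0, while the median over all genes went from -0.06 to 0.29. Relative to the median over all genes, 34 of 37 members were lower under either scaling. With 1 library per siRNA there is no replicate check. At least 1.5-fold lower were 5 of 37 members, a share near the 12.2% of all genes. None was as much higher, against 15.6%. The 5 members were Rsad2 (-1.33), Mx1 (-0.83), Ifit2 (-0.66), Cmpk2 (-0.63) and Mx2 (-0.60). With scaling by library size alone 1 member, Rsad2, was past that fold, against 636 of the 13700 genes. Rsad2 had a ratio of 0.399, with an exact 95% counting interval of 0.396 to 0.402. Such intervals and the limits for a count of 0 cover counting error only. With TMM scaling the interval lay below 1 for 34 members, held 1 for Oasl2 and Eif2ak2, and lay above 1 for Ifi44 (ratio 1.039, interval 1.01 to 1.07). Over all genes 36.5% lay below 1 and 25.9% above. By library size alone fewer members could lie below 1, since 17 had a log2 ratio below 0. Of the members most reduced in the strong-knockdown experiment, Ifnb1 had a log2 ratio of -0.31, Isg15 of -0.47, Irf7 of -0.50 and Bst2 of -0.46 in the weak one under TMM scaling. By library size alone Isg15, Irf7 and Bst2 stayed lower. Ifnb1 did not, with 1280 and 1201 counts on totals of 27029554 and 24553454. The weak-knockdown values share no library with the strong-knockdown experiment.

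**Figure D3:**
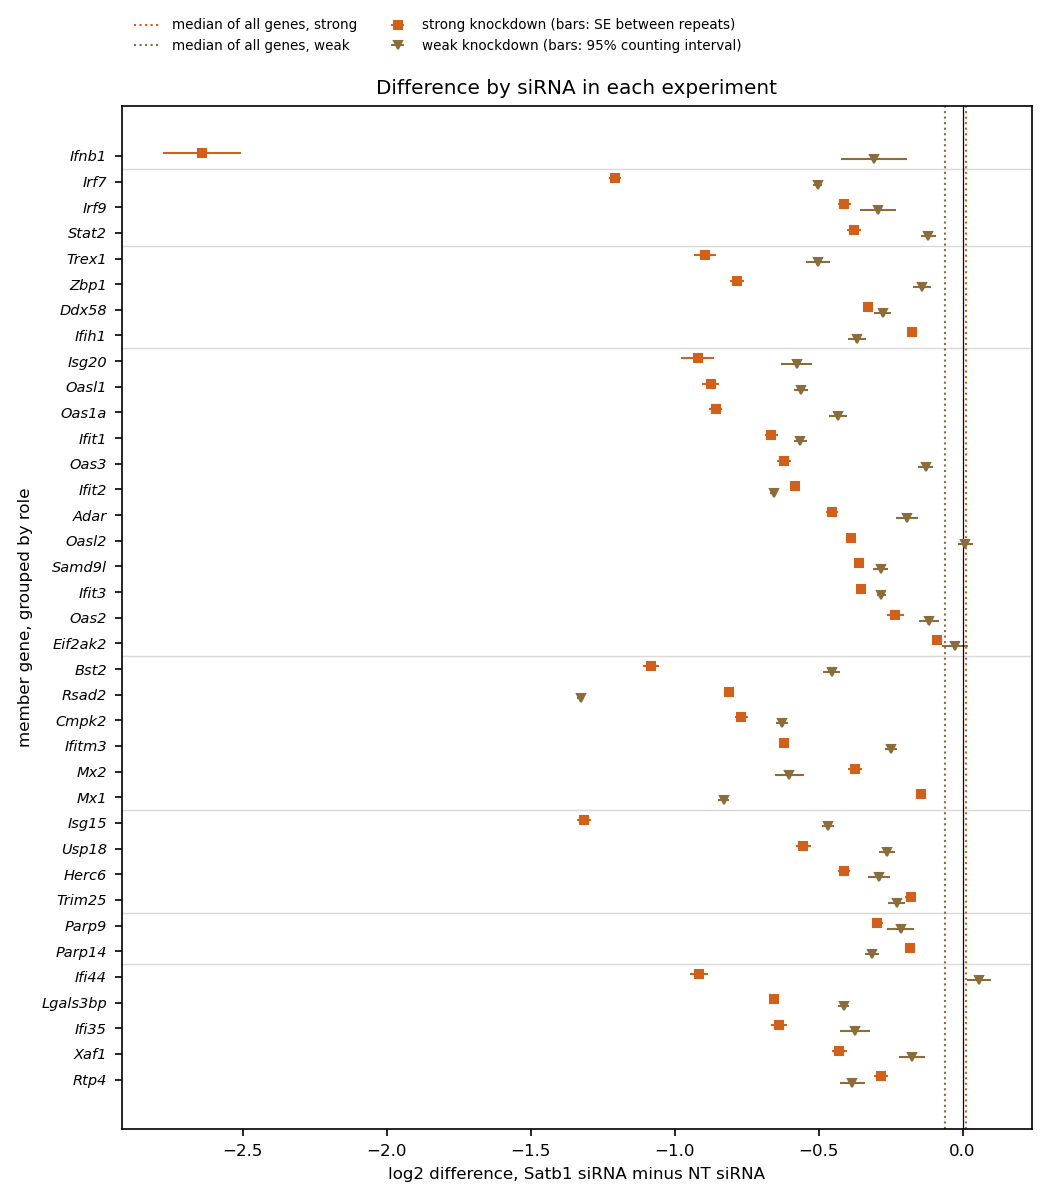
Log2 difference between Satb1 and NT siRNA for each member, grouped by role. Squares are the strong-knockdown experiment, with the SE between repeats as bars, triangles are the weak-knockdown experiment, with 95% counting intervals, and dotted lines mark the median over all genes. All squares lie below 0, from -2.64 (Ifnb1) to -0.09 (Eif2ak2), while 35 triangles lie below 0 under this TMM scaling and 17 with scaling by library size alone.

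The difference between the experiments was fitted in edgeR as an interaction over the 4 group means. Its spread comes from the near-identical repeats alone, and with 1 sample per group no degree of freedom is left between samples. A call therefore says that the sequenced libraries differ by more than the noise of repeats, and gives no test of a difference between the conditions. The log2 effect was called more negative in the strong-knockdown experiment for 27 members and more positive for 7, against 21.8% and 17.9% of 20971 genes, and Parp9, Trim25 and Eif2ak2 were not called. That split depends on the scaling, for the members and for all genes alike. It was 20 and 9 members with DESeq2's size factors, against 17.3% and 22.5% of all genes. With library size alone it was 34 and 2, against 39.8% and 8.31%, and with DESeq2 15 and 7, against 9.01% and 15.6%. Across these 4 settings, 15 members were called more negative each time, against 6.28% of all genes, with Ifnb1 (-2.34), Ifi44 (-0.98), Isg15 (-0.85) and Irf7 (-0.71) the largest under TMM. Rsad2 (0.51) and Mx1 (0.68) were called more positive each time. These 2 of 37 members are near the share of all genes so called, 5.78%, and do not set the list apart. The 7 called more positive under TMM are likewise near the 17.9% of all genes. Mx1 stood at 365 and 366 CPM with NT and 328 and 332 with Satb1 siRNA in the strong-knockdown experiment, and at 2878 and 1620.1 in the weak one. The other 20 members were not called the same way under all 4 settings, and 11 changed sign in at least 1.

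The NT controls of the experiments differed widely in these genes. In the weak-knockdown NT library 36 of 37 members were at least 1.5-fold, and also at least 2-fold, higher than in the summed NT libraries of the strong-knockdown experiment, against 35.4% of all genes at least 1.5-fold higher and 32.2% as much lower. The median member was 8.44-fold higher, or 3.08 on the log2 scale against 0.05 over all genes. Oasl1 differed the most, at 26.9-fold, followed by Isg20 at 23.7-fold, Irf7 at 20.7-fold, Cmpk2 at 19.7-fold and Isg15 at 19.5-fold, while Ifnb1 was 13.7-fold higher. The least different were Eif2ak2 at 1.26-fold, Irf9 at 2.02-fold and Samd9l at 2.20-fold, and with scaling by library size alone 1 member, Eif2ak2, was lower. Under that scaling the members' median was 2.47, against -0.56 over all genes. Members made up 3.99% of counts in the weak-knockdown NT library and 3.56% in its Satb1 siRNA library. All 37 members had their lowest level of the 6 libraries in a Satb1 siRNA library of the strong-knockdown experiment, against 38.0% of the 13700 genes compared. The highest level was in the weak-knockdown NT library for 35, against 35.5% of those genes, and in its Satb1 siRNA library for Ifi44 and Oasl2. All 3 libraries had NT siRNA, there is 1 weak-knockdown control, and the comparison shares its control libraries with the comparisons by siRNA. The experiment and any difference in how its cells were obtained cannot be told apart.

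**Figure D4:**
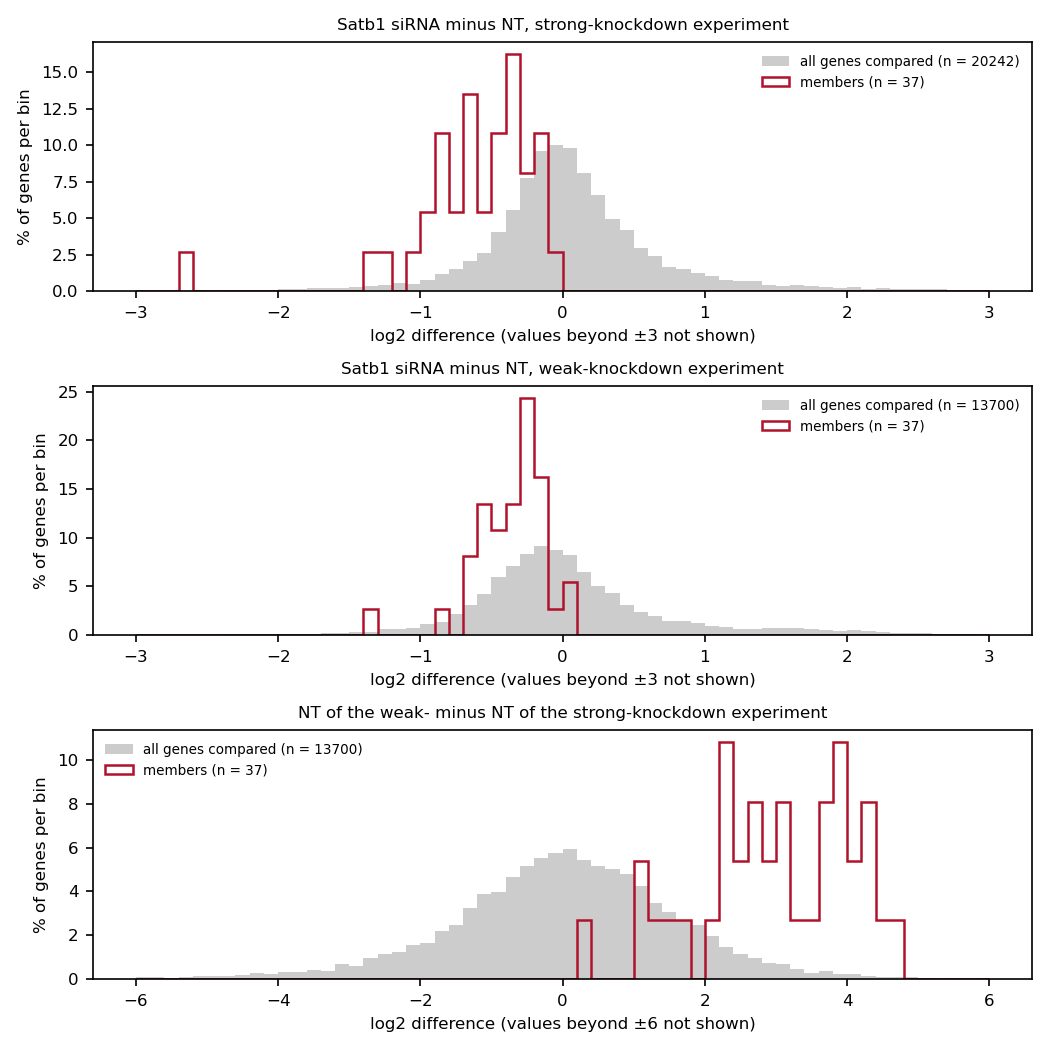
Distribution of log2 differences over all genes (grey, % of genes per bin) and over the 37 members (red outline) for Satb1 minus NT siRNA in each experiment and for the weak-knockdown minus the strong-knockdown NT controls. The members' medians are -0.55, -0.31 and 3.08, against 0.01, -0.06 and 0.05 over all genes, all with TMM scaling; with library size alone the middle median is 0.05 against 0.29.

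Markers of other cells also differed between the libraries. The marker counts of the strong-knockdown experiment stand against 32.8% of all genes called higher and 33.2% called lower by the same test. In the strong-knockdown experiment 10 markers of plasmacytoid dendritic cells, the cells known for the highest interferon output, summed to 167 to 168 CPM with NT. With Satb1 siRNA they summed to 211 to 232, with 6 of 9 tested markers higher and none lower. Most of that sum was 1 gene, Tcf4, at 144 CPM in each NT library and 183 and 201 with Satb1 siRNA. Klk1 of that list was at 0 in both NT libraries. Classical dendritic cell markers summed to 105 to 106 CPM with NT and 92.8 to 95.9 with Satb1 siRNA (6 of 10 higher, 4 lower), and macrophage markers to 3782 to 3789 and 4047 to 4054 (6 of 10 higher, 3 lower). Of the macrophage markers, Cd163 rose from 318 and 317 to 621 and 625 CPM, while Cd68, Fcgr1 and C1qa were lower. Monocyte markers summed to 3903 to 3916 and 4855 to 4872 CPM (4 of 8 higher, 3 lower), and neutrophil markers to 96.5 to 96.8 and 106 in each (3 of 8 higher, 2 lower). Most of the monocyte sum was F13a1, at 2047 and 2052 CPM with NT and 2728 and 2723 with Satb1 siRNA. By log2 fold change Chi3l3 was also higher (1.16), while Vcan (-1.24) and Plac8 (-1.13) were lower. Camp of the neutrophil list was at 0 in 1 NT and 1 Satb1 siRNA library. B cell markers summed to 25.04 to 25.7 and 43.4 to 44.2 CPM (7 of 9 higher, none lower). T and NK cell markers summed to 37.2 to 39.2 and 50.3 to 50.4 (5 of 7 higher, none lower). Most of the T and NK cell sum was Cd3d, at 33.3 and 31.0 CPM with NT and 40.8 and 41.2 with Satb1 siRNA. Tumour and mesothelial markers summed to 867 to 870.0 and 961 to 970.3 (8 of 10 higher, none lower). The weak-knockdown NT and Satb1 siRNA libraries held 191 and 164 CPM of plasmacytoid, 378 and 662 of classical dendritic cell, 8479.7 and 5745 of macrophage and 5407 and 3505 of monocyte markers. They held 701 and 296 CPM of neutrophil, 38.2 and 26.1 of B cell, 43.3 and 34.9 of T and NK cell, and 191 and 680.2 of tumour and mesothelial markers. The part of these differences in the members' results was not tested.

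The rest of the interferon pathway was described from 5 lists with 102 genes in the table, of which Ifnb1 is also a member. Of the interferon genes themselves, 9 were counted deeply enough to test in the strong-knockdown experiment. Among these 6 were lower, 1 was higher and 2 were not called, with a median log2 fold change of -2.37, which is unchanged with Ifna1 at its bound. The interferon alpha genes named next were chosen after their values were seen, and their near-identical copies make single counts uncertain. Ifna4 gave 128 and 126 counts with NT and 14 and 17 with Satb1 siRNA, and Ifna2 gave 69 and 83 against 8 and 14. Ifna1 gave 45 and 59 counts against 0 in both Satb1 siRNA libraries, which is at least 13.04-fold lower with a floor of 3 counts per library. In the weak-knockdown experiment these 3 genes were not lower with Satb1 siRNA, with 248 and 328 counts for Ifna4, 171 and 203 for Ifna2 and 63 and 104 for Ifna1, on totals of 27029554 and 24553454. The interferon gene that was higher was Ifnk, with 29 and 28 counts against 50 and 54.

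Upstream of the interferon genes, 16 of 19 sensors, adaptors and factors were lower, 2 were higher and 1 was not called (median -0.24). Tmem173 (STING), the adaptor of cytosolic DNA sensing, changed by -0.69 and Ticam1 (TRIF), the adaptor of TLR3 and TLR4, by -0.67. The factors Irf3 and Irf1 changed by -0.19 and -0.24. Of the receptors, kinases, STATs and feedback inhibitors, 8 of 14 were lower, 3 higher and 3 not called (median -0.18). The receptor chain Ifnar1 was not called, at 289 and 287 CPM with NT against 288 and 284 (edgeR, adjusted p = 0.773), while Ifnar2 changed by -0.19. The feedback inhibitor Socs1 gave 61 and 70 counts against 7 and 8 (-2.70), and Socs3 changed by -0.88. Ifngr1, a receptor chain for interferon gamma, was higher by 0.13.

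Of 44 further interferon-induced genes, 37 were lower, 3 higher and 4 not called (median -0.34), with Ifi27l2a (-1.11) and Ms4a4c (-1.001) the largest falls among well-counted genes. In the interferon gamma axis 4 of 6 were lower and 2 not called (median -0.52). Nos2, inducible nitric oxide synthase, changed by -1.74 and the chemokine Cxcl10 by -1.31. The medians of all 5 lists were thus below 0, as was that of the members, while 33.2% of all genes were called lower.

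**Figure D5:**
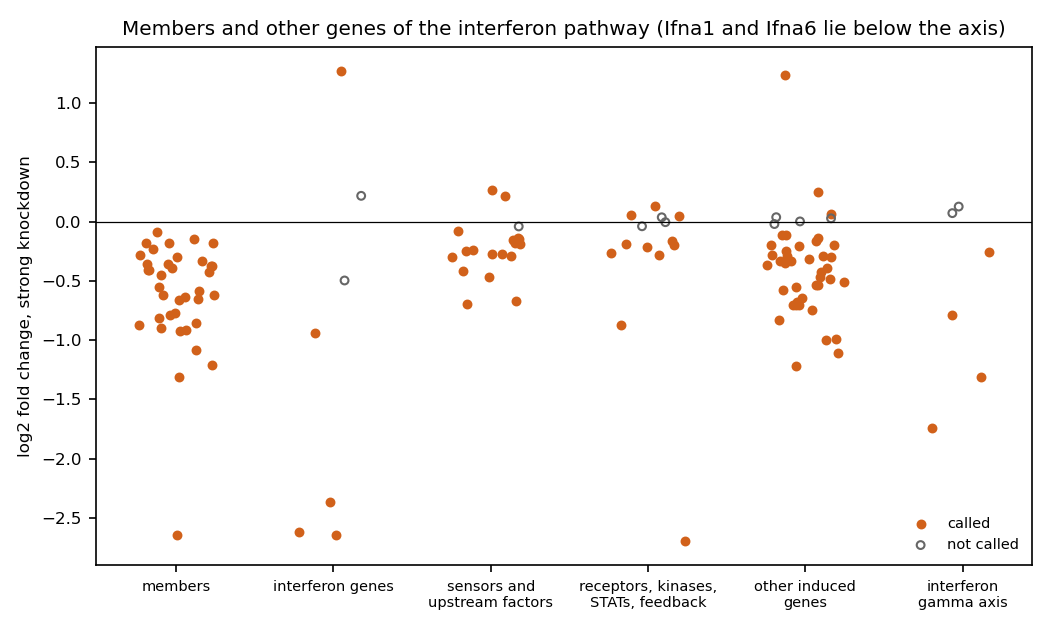
Log2 fold change of each tested gene in the strong-knockdown experiment for the members and 5 pathway lists, with filled points for genes that passed the edgeR test and open points for those that did not. Ifnb1 is drawn in the first and in the second column. The members' median is -0.55, and the medians of the lists are -2.37, -0.24, -0.18, -0.34 and -0.52 from left to right; Ifna1 and Ifna6 lie below the axis.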

How the data were processed

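RNA-seq of 6 libraries was analysed. Per the labels' protocols, Trizol was used to isolate total RNA and the kit was TruSeq Stranded Total RNA. The authors deposited, per the file headers, a count and an FPKM value for each gene and library. The submitters' processing notes name RSEM 1.2.12, DESeq2 and build mm9, and the counts are therefore taken for estimated counts of RSEM. All were whole numbers. The FPKM values deposited by the authors are relative to gene length and depth, and were used only for the members' levels per length, between genes and as a median per library. The sources used here do not give the aligner, the filters or the strand setting.

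Samples were grouped by their titles. The strong-knockdown experiment was tested with edgeR 4.0.16 in R 4.3.3 (robust quasi-likelihood F-test, TMM scaling, filterByExpr by group, two-sided, Benjamini-Hochberg adjustment over all genes tested, threshold 0.05). The weak-knockdown experiment and the NT controls were described by log2 CPM ratios (prior count 2, TMM scaling over 6 libraries) of genes whose mean log2 CPM was at least 0. The difference between experiments was fitted in edgeR over 4 group means, with the spread of the repeats only. With the repeats summed to 1 sample per group, edgeR and DESeq2 1.42.0 were fitted with the experiment as a term. Alternatives changed the scaling, the filter, the prior count, the tool, the block and the libraries. Fits were tested on simulated data, which recovered most but not all of the smallest known changes; the share required to pass was lowered after that was seen.

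Members and lists were chosen with earlier results of these data known, and lists are described without a test of their own. Full values are given for the 12 members with the largest absolute log2 fold change among those with a mean of at least 1 CPM, and for Ifnb1, Irf7, Irf9, Stat2 and Satb1. From the pathway lists the text names a set of fixed genes, of which 1 is not reported here, and the 2 largest called changes per list among genes whose mean log2 CPM was at least 1. The files use mm9, so promoter coordinates are of RefSeq's GRCm38.p6 and come with the sequences, and none are given from the files.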

Additional observations from a re-analysis of the deposited data

Results flagged for a closer look

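For 34 members edgeR's interaction fit called the log2 difference by Satb1 siRNA unlike in the libraries of the 2 experiments, as it did for 21.8% of all genes in the negative and 17.9% in the positive direction. Its spread comes from near-identical repeats, and the weak-knockdown experiment has 1 library per siRNA, so it compares sequenced libraries and does not test the conditions. The values are the log2 fold change in the strong-knockdown experiment minus that in the weak one. The interferon gene and its factors gave -2.34 (Ifnb1), -0.71 (Irf7), -0.26 (Stat2) and -0.12 (Irf9). Among the sensors and the DNA exonuclease the values were -0.65 for Zbp1, -0.40 for Trex1, -0.058 for Ddx58 and 0.19 for Ifih1. The genes of translation and RNA decay gave -0.50 (Oas3), -0.43 (Oas1a), -0.40 (Oasl2), -0.35 (Isg20), -0.32 (Oasl1), -0.27 (Adar), -0.12 (Oas2), -0.11 (Ifit1), -0.076 (Ifit3), -0.079 (Samd9l) and 0.070 (Ifit2). For virus entry, replication and release they were -0.63 (Bst2), -0.38 (Ifitm3), -0.15 (Cmpk2), 0.22 (Mx2), 0.51 (Rsad2) and 0.68 (Mx1). Isg15 gave -0.85, Usp18 -0.30 and Herc6 -0.13, and Parp14 gave 0.13. The remaining genes gave -0.98 (Ifi44), -0.27 (Ifi35), -0.26 (Xaf1), -0.25 (Lgals3bp) and 0.095 (Rtp4). Over 4 settings of scaling and tool, 15 members were called more negative and 2 more positive each time, against 6.28% and 5.78% of all genes. In at least 1 setting 11 of 37 members changed sign, among them Ifit2, Ifit3, Mx2, Ddx58, Ifih1, Parp14, Rtp4 and Samd9l of those listed here.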

How the results depend on the processing

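All 37 members were called lower, and none higher, in the strong-knockdown experiment under each scaling, filter and tool tried with the repeats as separate libraries, and without each of the 4 libraries in turn. With the repeats summed, 0 were called lower by edgeR and 7 by DESeq2. That layout fits 1 siRNA effect over both experiments, and has 4 samples and 1 residual degree of freedom. The members' median was -0.50 with library size alone and -0.57 to -0.54 without single libraries. Replicate numbers did not pair the samples (correlation of deviations -0.04 over 20242 genes), and with the replicate block 37 were lower with a median of -0.55. In the weak-knockdown experiment, TMM over its own libraries gave a median of -0.26 with 3 members at least 1.5-fold lower, against 1399 of 13700 genes. Library size alone gave 0.047 with 1 member, against 636 genes. Members called in the interaction fit numbered 34 by TMM, 22 with DESeq2 and 30 to 34 without single libraries. The median ratio of the NT controls was 2.47 with library size alone, 3.12 with DESeq2's size factors and 3.08 to 3.09 without single libraries. The calls of the strong-knockdown experiment rest on near-identical repeats, the weak-knockdown experiment has 1 library per siRNA, and low counts limit Ifnb1 and the interferon alpha genes the most.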
